A study of Mus musculus with 14 samples.

Results

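Lcn2, Steap4, Saa3, Serpina3n, C3 and Icam1 are 6 genes of the acute-phase response that these fibroblasts express, out of 52636 genes in the deposited table. They were chosen by symbol for their large measured differences between forms of the telomere protein TRF1, so those differences are described here without a test. Each symbol matched 1 Ensembl gene, and all 6 genes reached 1 CPM (read counts scaled to a common library size, here after TMM scaling) in at least 2 of the 14 libraries. Serpina3n, Steap4 and Icam1 stayed under 1 CPM in at least 1 group and passed that minimum through their higher groups.

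The cells were transformed mouse embryonic fibroblasts, in which mouse TRF1 is replaced by naked mole rat TRF1 or by a mutant of it. RNA was sequenced in bulk with 2 libraries, A and B, for each of 7 groups. The title of the study concerns glycolysis, telomere replication and hypoxia. The double mutant, which carries the GLAD and TIN substitutions together, was sampled in hypoxia (1% oxygen) and in normoxia (atmospheric oxygen). The GLAD mutant (Glu69Lys, Val70Ala and Ala75Thr) and the TIN mutant (Ala105Thr) were each sampled in hypoxia and in normoxia. Wild-type naked mole rat TRF1 was sampled in normoxia. All groups grew in medium with 10% fetal calf serum.

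Whether A and B came from separate cultures is not stated in the labels, so each p-value covers the spread of the sequenced libraries alone, and that spread may be technical. Each form may be 1 cell line, and line and substitution then cannot be told apart. The wild-type columns are named by another scheme, with the word Mouse in them, so a batch and the TRF1 form cannot be told apart there, and comparisons with wild type rest on the titles. Estimated depth was 11916992 to 15023545 reads per library, and 3 reads corresponded to 0.200 to 0.252 CPM. The first 2 principal components held 31.2% and 30.2% of the variance, with hypoxia libraries at 14.6 to 68.0 and normoxia libraries at -62.6 to -6.09 on the first, and TIN libraries at 59.5 to 62.5 and all others at -37.4 to -13.2 on the second. Of 12 fibroblast markers 11 were tested, and their summed level was 7715 to 16630 CPM, while Thy1 was below the minimum. The fibroblast markers differed between forms: in normoxia 8 of 11 were lower and 2 higher in TIN than in GLAD (median log2 difference -0.70, against 0.02 over all tested genes, of which 25.5% were called lower and 25.8% higher). Dcn, which encodes the matrix proteoglycan decorin, had 1309 and 1336 CPM in double-mutant normoxia, 392 and 400.1 CPM in GLAD normoxia, 33.3 and 36.6 CPM in TIN normoxia and 13.1 and 13.3 CPM in wild type. Col1a1 ran the other way, with 5531 and 5972 CPM in wild type against 1579 and 1799 CPM in double-mutant normoxia. Over the list 4 of 11 markers were higher and 5 lower in double-mutant normoxia than in wild type (median log2 difference -0.08). Of all 16157 tested genes 4652 were called higher and 4525 lower in that comparison. Dcn and Col1a1 were named after their values were seen. The part of these markers in the differences between forms was not tested. Of 10 hepatocyte markers 9 were in the table and 0 reached the minimum, and their summed level was 0.528 to 1.65 CPM.

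The acute-phase response is the change in secreted and surface proteins that follows infection or injury. Interleukin 1 and tumour necrosis factor drive it through the transcription factor NF-kB, and interleukin 6 and related cytokines drive it through STAT3 and C/EBP factors. The liver is its best known site, but fibroblasts also make several of these proteins. Its products bind iron carriers, inhibit proteases, tag microbes for removal and bring leukocytes to the tissue.

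The starts of the genes carry some letters that these factors are known to prefer. The 250 bases before each RefSeq start (GRCm38.p6) were searched on both strands for a C/EBP-like motif, TTGCNNAA, an NF-kB-like motif, GGAANNTCC, and a STAT-like motif, TTCNNNGAA. The C/EBP-like letters were found before 4 of the 6 genes (Lcn2, Saa3, C3 and Steap4), and 9.56% of 32851 promoters of this length hold them. The NF-kB-like letters were found before Icam1 alone, against 3.59% of all promoters, and the STAT-like letters before Steap4 and Icam1, against 7.02%. Serpina3n had none of the 3 motifs in this window. A match describes the letters only. The 4 promoters below show, in capitals, the C/EBP-like match nearest to a start (C3, 45 bases before it), the match on the other strand in Saa3 (99 bases before the start), the pair of matches in Steap4 and the NF-kB-like match in Icam1. They run 5′ to 3′ along the gene's strand and are RefSeq sequence. The coordinates are chr7:46715677-46715926 (minus strand) for Saa3, chr17:57228137-57228386 (minus strand) for C3, chr5:7960222-7960471 (plus strand) for Steap4 and chr9:21015690-21015939 (plus strand) for Icam1. In Steap4 the STAT-like match comes first, 116 bases before the start, and the C/EBP-like match follows at 87 bases. In Icam1 the NF-kB-like match lies 153 bases and the STAT-like match 42 bases before the start.
Saa3: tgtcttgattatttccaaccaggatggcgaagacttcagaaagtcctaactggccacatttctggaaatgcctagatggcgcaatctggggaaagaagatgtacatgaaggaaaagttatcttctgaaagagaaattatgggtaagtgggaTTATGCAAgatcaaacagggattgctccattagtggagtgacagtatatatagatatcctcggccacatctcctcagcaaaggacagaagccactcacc
C3: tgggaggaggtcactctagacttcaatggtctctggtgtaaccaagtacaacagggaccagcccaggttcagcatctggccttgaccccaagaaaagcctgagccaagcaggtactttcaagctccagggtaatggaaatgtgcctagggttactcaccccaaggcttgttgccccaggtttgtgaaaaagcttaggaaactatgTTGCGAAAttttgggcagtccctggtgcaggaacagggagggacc
Steap4: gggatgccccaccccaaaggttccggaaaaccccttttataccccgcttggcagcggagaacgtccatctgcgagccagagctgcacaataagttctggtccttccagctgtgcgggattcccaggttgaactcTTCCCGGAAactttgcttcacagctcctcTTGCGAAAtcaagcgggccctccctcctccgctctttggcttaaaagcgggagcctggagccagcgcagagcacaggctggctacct
Icam1: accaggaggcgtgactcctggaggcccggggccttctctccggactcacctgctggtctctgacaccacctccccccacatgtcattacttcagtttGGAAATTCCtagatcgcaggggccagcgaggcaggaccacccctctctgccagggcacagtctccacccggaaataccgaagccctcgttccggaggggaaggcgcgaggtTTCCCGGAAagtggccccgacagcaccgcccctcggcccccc

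Lcn2 (ENSMUSG00000026822, GRCm38 chromosome 2, 32384633 to 32388252, minus strand) encodes lipocalin 2, a secreted protein that binds bacterial siderophores and so withholds iron from bacteria. In libraries A and B its level was 1002 and 1090 CPM in double-mutant hypoxia and 763 and 785 CPM in double-mutant normoxia. It was 112 and 119 CPM in GLAD hypoxia against 53.4 and 62.9 CPM in GLAD normoxia, and 81.2 and 81.2 CPM in TIN hypoxia against 5.76 and 5.90 CPM in TIN normoxia. Wild-type normoxia held 27.9 and 34.8 CPM. The 7 groups did not overlap, and Lcn2 ran from double-mutant hypoxia at the top through double-mutant normoxia, GLAD hypoxia, TIN hypoxia, GLAD normoxia and wild type to TIN normoxia. The highest group mean was 179 times the lowest. In bulk samples like these, fewer cells of a type and less RNA per cell cannot be told apart. In normoxia the double mutant stood 6.93 ± 0.10 above the TIN mutant and 3.73 ± 0.10 above the GLAD mutant on the scale of log2(CPM + 0.5), used for all log2 values here, where ± is the standard error of the fit.

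Steap4 (ENSMUSG00000012428, chromosome 5, 7960457 to 7982213, plus strand) encodes a membrane metalloreductase that reduces iron and copper and is induced by inflammatory cytokines. In libraries A and B its level was 217 and 255 CPM in double-mutant hypoxia against 408 and 377 CPM in double-mutant normoxia. GLAD hypoxia held 199.9 and 202 CPM against 143 and 157 CPM in GLAD normoxia, and TIN hypoxia 34.5 and 33.5 CPM against 4.88 and 5.31 CPM in TIN normoxia. Wild-type normoxia held 0.510 and 0.252 CPM, or about 6 and 3 reads, at or just above the 3-read limit. Steap4 thus had no overlap between groups, with double-mutant normoxia highest and wild type lowest. Its log2 difference of GLAD from wild type in normoxia was 7.43 with 0.5 CPM added and 6.00 to 8.34 with other settings, so no fold is given against wild type. In normoxia the double mutant stood 1.39 ± 0.12 above GLAD and 6.14 ± 0.12 above TIN (log2).

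Saa3 (ENSMUSG00000040026, chromosome 7, 46711998 to 46715700, minus strand) encodes serum amyloid A3, the family member known in mice for expression outside the liver. Its level in libraries A and B was 317 and 380.0 CPM in double-mutant hypoxia against 291 and 304 CPM in double-mutant normoxia. It was 18.8 and 19.6 CPM in GLAD hypoxia against 16.7 and 17.3 CPM in GLAD normoxia. It was 14.9 and 18.7 CPM in TIN hypoxia against 2.93 and 4.03 CPM in TIN normoxia, and wild-type normoxia held 25.1 and 36.6 CPM. For Saa3 wild type lay below both double-mutant groups and above all groups of the single mutants, and GLAD normoxia overlapped TIN hypoxia. In normoxia Saa3 was 0.82 ± 0.16 lower in GLAD than in wild type and 2.97 ± 0.16 lower in TIN than in wild type on the log2 scale. The serum amyloid A genes made chiefly in liver, Saa1 and Saa2, lay below the minimum, with 0.528 CPM the highest value of Saa1 in any library. Saa3 has close relatives in the same cluster, and how reads shared between such copies were counted is not given in the sources used here.

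Serpina3n (ENSMUSG00000021091, chromosome 12, 104406729 to 104414329, plus strand) encodes a secreted serine protease inhibitor, one of the mouse counterparts of human alpha-1-antichymotrypsin. Its level in libraries A and B was 30.2 and 37.2 CPM in double-mutant hypoxia against 43.3 and 46.5 CPM in double-mutant normoxia. It was 6.98 and 7.58 CPM in GLAD hypoxia against 9.47 and 11.0 CPM in GLAD normoxia. It was 7.52 and 5.70 CPM in TIN hypoxia against 0.684 and 0.492 CPM in TIN normoxia, about 10 and 6 reads, and wild-type normoxia held 0.765 and 0.755 CPM. GLAD hypoxia overlapped TIN hypoxia, and TIN normoxia and wild type lay at the bottom. Their CPM did not overlap, but wild type rested on about 9 and 10 reads. The read numbers of TIN normoxia and wild type thus overlapped, and the order of these groups is uncertain. The log2 difference of TIN from GLAD was -0.14 ± 0.17 in hypoxia, and it was 0.05 without TIN hypoxia library B. Serpina3n belongs to a family of similar neighbouring copies, so its reads may be split with them.

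C3 (ENSMUSG00000024164, chromosome 17, 57203970 to 57228136, minus strand) encodes complement component 3, the central protein that all complement pathways cleave. Its level in libraries A and B was 2985 and 2767 CPM in double-mutant hypoxia against 2304 and 2555 CPM in double-mutant normoxia. It was 1402 and 1581 CPM in GLAD hypoxia against 1078 and 1161 CPM in GLAD normoxia. It was 302 and 335 CPM in TIN hypoxia against 114 and 121 CPM in TIN normoxia, and wild-type normoxia held 311 and 313 CPM. C3 in TIN hypoxia overlapped wild type, and the other neighbours in the order did not overlap. Per kilobase of exons C3 was the highest of the 6 genes in double-mutant hypoxia, at 559 ± 30.0 CPM per kilobase (SD, n = 2). Lcn2 followed at 399 ± 23.7, Saa3 at 134 ± 17.1, Steap4 at 74.8 ± 8.56, Serpina3n at 16.3 ± 2.38 and Icam1 at 2.18 ± 0.126 CPM per kilobase (SD, n = 2).

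Icam1 (ENSMUSG00000037405, chromosome 9, 21015985 to 21028817, plus strand) encodes an adhesion receptor for leukocyte integrins. An antisense gene, Gm47079, overlaps its exons, and without a stated strand setting the reads of the 2 genes cannot be told apart. In libraries A and B the level was 9.12 and 9.90 CPM in double-mutant hypoxia against 6.11 and 5.40 CPM in double-mutant normoxia. It was 13.0 and 13.6 CPM in GLAD hypoxia against 17.5 and 19.2 CPM in GLAD normoxia. It was 2.96 and 2.35 CPM in TIN hypoxia against 2.10 and 1.33 CPM in TIN normoxia, and wild-type normoxia held 0.510 and 0.604 CPM, about 6 and 8 reads. Icam1 groups did not overlap, and its order differed from the other 5 genes in that both GLAD groups lay above both double-mutant groups. In normoxia the double mutant stood 1.59 ± 0.18 below GLAD and 1.52 ± 0.18 above TIN (log2).

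**Figure D1:**
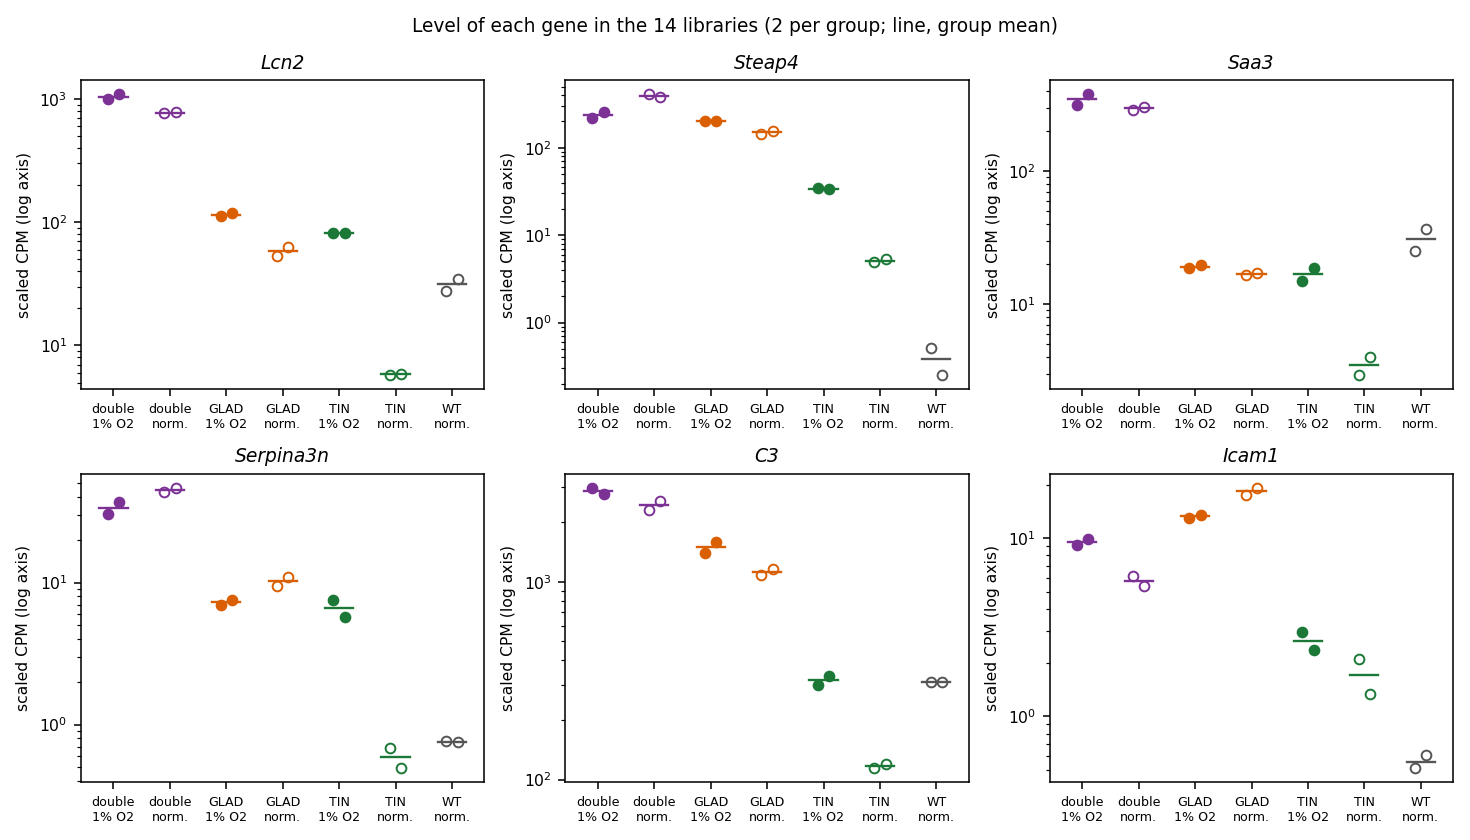
Level of each gene in TMM-scaled CPM (log axis) in all 14 libraries. Filled points are hypoxia, open points normoxia, and lines the mean of the 2 libraries of a group. TIN normoxia is the lowest group for Lcn2, Saa3 and C3, and wild type for Steap4 and Icam1. For Serpina3n TIN normoxia and wild type are lowest, in an uncertain order. The double mutant is highest for all but Icam1.

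Across the 14 libraries the highest Pearson r was that of Lcn2 and Saa3 (0.94, with a Spearman rho of 0.78) and the highest rho that of Lcn2 and C3 (0.93, with r = 0.91). Saa3 and Icam1 were lowest by both measures (r = 0.28, rho = 0.10). These are descriptions over libraries that come in pairs from 7 groups. The differences between mutants can be set side by side at the 2 oxygen levels, as they share no library. The log2 difference of TIN from GLAD for Lcn2 was -0.50 ± 0.10 in hypoxia and -3.21 ± 0.10 in normoxia. For Saa3 it was -0.19 ± 0.16 in hypoxia and -2.15 ± 0.16 in normoxia, and for Serpina3n -0.14 ± 0.17 in hypoxia and -3.31 ± 0.17 in normoxia. C3, Steap4 and Icam1 kept differences of -2.23 ± 0.08, -2.55 ± 0.12 and -2.13 ± 0.18 in hypoxia, against -3.25 ± 0.08, -4.75 ± 0.12 and -3.11 ± 0.18 in normoxia. All 6 differences of TIN from GLAD were negative at both oxygen levels. The genes were chosen for differences between forms, so this shared sign is a description and supports nothing about the forms. In hypoxia the differences of Saa3 and Serpina3n were close in size to their standard errors. That of Serpina3n was 0.05 without TIN hypoxia library B. The difference of the double mutant from GLAD for Saa3 was 4.14 ± 0.16 in hypoxia and 4.09 ± 0.16 in normoxia, while for Steap4 it was 0.23 ± 0.12 in hypoxia and 1.39 ± 0.12 in normoxia.

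**Figure D2:**
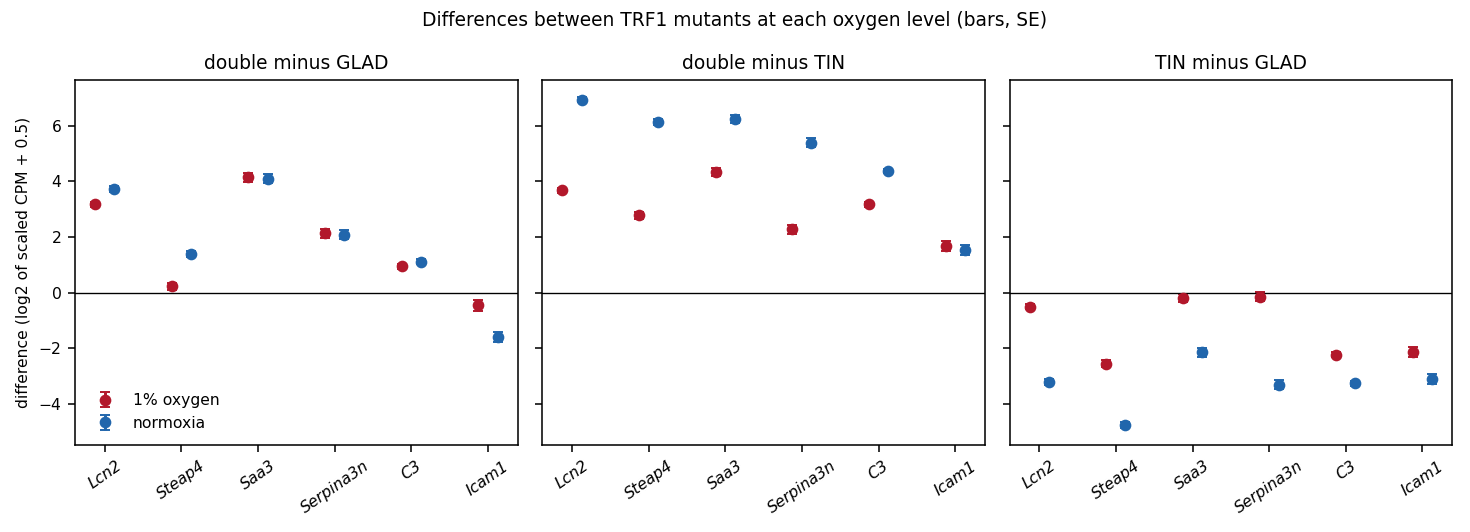
Difference in log2(TMM-scaled CPM + 0.5) between pairs of TRF1 mutants for each gene, in hypoxia (red) and in normoxia (blue). Points are fitted differences and bars their SE, from 2 libraries per group. The points of TIN minus GLAD are all below 0, with Saa3 and Serpina3n in hypoxia near 0, and those of double minus TIN all above 0. The genes were chosen for differences between forms, so these signs are descriptions.

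Hypoxia against normoxia was then tested within each mutant, since the genes were chosen on TRF1 form and not on oxygen. The choice used all 14 libraries, however, so the same values enter these tests. Double-mutant normoxia was the highest group for Serpina3n and Steap4, and GLAD normoxia for Icam1. TIN normoxia was the lowest group for Lcn2, Saa3 and C3, and wild type for Steap4 and Icam1. For Serpina3n TIN normoxia and wild type were lowest, in an uncertain order. In no mutant are the size of the effect and its p-value independent of the choice. Tests used limma with Benjamini-Hochberg adjustment over 16157 genes, and an adjusted p under 0.05 made a call. In the TIN mutant 6 of 6 genes rose in hypoxia, where 26.8% of all tested genes were called up and 27.3% called down. In the GLAD mutant 3 rose and 1 fell, against 22.0% of all genes up and 26.0% down. In the double mutant 3 rose and 2 fell, against 26.3% up and 29.7% down. Averaged over the 3 mutants 6 of 6 rose, against 31.2% up and 36.2% down. That average takes in the effects of all 3 mutants and their dependence on the choice. Serpina3n was called up on average, by 0.61 ± 0.10, although it fell in GLAD and in the double mutant. Steap4 was called up on average, by 0.77 ± 0.07, although it fell in the double mutant. Icam1 was called up on average, by 0.25 ± 0.11, although its difference in GLAD was -0.45 ± 0.18 (not called). The hypoxia libraries of a mutant did not overlap its normoxia libraries for any of the 6 genes. How often this holds over all tested genes was not counted, so it is not read as a trait of the 6 genes.

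Of the iron-related genes, Lcn2 rose in hypoxia in all 3 mutants. Its log2 change was 3.69 ± 0.10 in TIN (adjusted p = 3.02e-15), 0.99 ± 0.10 in GLAD (adjusted p = 2.19e-07) and 0.43 ± 0.10 in the double mutant (adjusted p = 9.71e-04), by limma with 2 libraries per group. On the scale of log2(CPM + 0.5) the TIN change was 12.9-fold and the others 1.98-fold and 1.35-fold. Steap4 rose by 2.63 ± 0.12 in TIN (adjusted p = 4.55e-12) and by 0.42 ± 0.12 in GLAD (adjusted p = 0.0062), but fell by 0.74 ± 0.12 in the double mutant (adjusted p = 3.44e-05). The GLAD call for Steap4 was lost without GLAD normoxia library A (adjusted p = 0.0689).

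Of the secreted acute-phase proteins, Saa3 rose in TIN by 2.13 ± 0.16 (adjusted p = 5.20e-09). Its changes in GLAD, 0.17 ± 0.16 (adjusted p = 0.391), and in the double mutant, 0.22 ± 0.16 (adjusted p = 0.238), did not pass the limma test, although all hypoxia libraries were the higher ones. In the double mutant Saa3 passed when only the groups compared were fitted (adjusted p = 0.0186) or without the wild-type libraries (adjusted p = 0.0477). Serpina3n rose in TIN by 2.70 ± 0.17 (adjusted p = 5.64e-10), and by 1.73 with 2 CPM added in place of 0.5 CPM, as its TIN normoxia level was near the limit of detection. It fell by 0.46 ± 0.17 in GLAD (adjusted p = 0.0302) and by 0.42 ± 0.17 in the double mutant (adjusted p = 0.0436). Both Serpina3n falls sat near the threshold. The GLAD fall was lost without GLAD normoxia library B (adjusted p = 0.201), hypoxia library A (adjusted p = 0.149) or hypoxia library B (adjusted p = 0.0670). The double-mutant fall was lost on leaving out any 1 of 7 libraries (double-mutant normoxia A or B, double-mutant hypoxia A and the 4 GLAD libraries), and it was -0.26 on the log2 scale without double-mutant hypoxia library A (adjusted p = 0.305).

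C3 rose in all 3 mutants, by 1.44 ± 0.08 in TIN (adjusted p = 2.70e-10), 0.41 ± 0.08 in GLAD (adjusted p = 6.40e-04) and 0.24 ± 0.08 in the double mutant (adjusted p = 0.0206). The double-mutant call for C3 was lost without normoxia library A (adjusted p = 0.193) or hypoxia library A (adjusted p = 0.124) of that mutant, with no filter (adjusted p = 0.0596) and with only the groups compared (adjusted p = 0.0848). Icam1 rose by 0.68 ± 0.18 in the double mutant (adjusted p = 0.00428) and by 0.53 ± 0.18 in TIN (adjusted p = 0.0219). The TIN change of Icam1 was 0.27 without TIN normoxia library B (adjusted p = 0.290), 0.39 without TIN hypoxia library A (adjusted p = 0.174) and 0.33 with 2 CPM added, and its call was also lost with no filter on low values (adjusted p = 0.0547), which leaves 5 of 6 genes called in TIN. In GLAD the difference of Icam1 was -0.45 ± 0.18 and just missed the threshold (adjusted p = 0.0502), and it passed without a wild-type library or a TIN normoxia library (adjusted p = 0.0317 to 0.0412). Its average over the mutants, 0.25 ± 0.11 (adjusted p = 0.0442), lost its call on leaving out any 1 of 8 libraries (GLAD normoxia A or B, TIN normoxia B, double-mutant normoxia B, GLAD hypoxia A or B, TIN hypoxia A, double-mutant hypoxia B), with 0.17 the lowest value (without TIN normoxia library B).

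**Figure D3:**
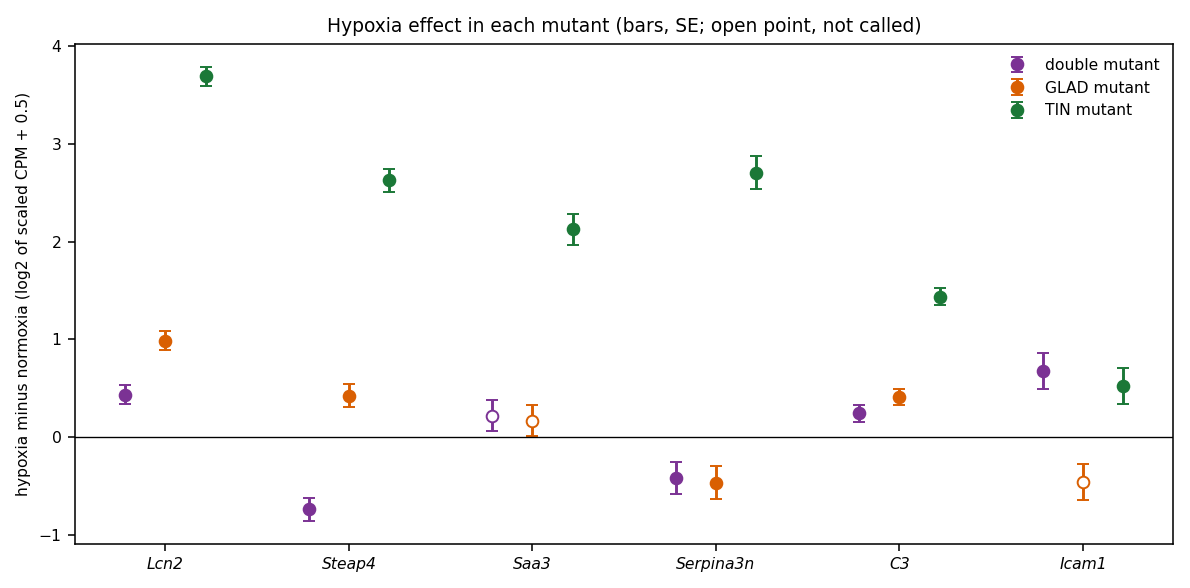
Hypoxia effect, as the difference in log2(TMM-scaled CPM + 0.5) between hypoxia and normoxia, for each gene in the double (purple), GLAD (orange) and TIN (green) mutants. Bars are SE from 2 libraries per group, and open points did not pass adjusted p under 0.05. The TIN points lie between 0.53 and 3.69, while Serpina3n lies below 0 in the GLAD and double mutants and Steap4 in the double mutant.

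Some markers of other cell types also differed with oxygen. The summed level of 12 myeloid and lymphoid markers, 3 of them tested, was 57.7 to 71.3 CPM in the hypoxia libraries and 24.4 to 39.0 CPM in the normoxia libraries of the mutants, with Cd3e and Tyrobp at 0 in every library. Cd68 gave 39.5 to 44.5 CPM of the hypoxia sums and 6.89 to 17.3 CPM of the normoxia sums. Csf1r gave 16.9 to 27.4 CPM of the hypoxia sums and 15.4 to 19.2 CPM of the normoxia sums. The leukocyte genes Ptprc, Adgre1 and Itgam had at most 0.211 CPM in any library. The summed level of 8 epithelial markers, 2 of them tested, was 18.3 to 63.2 CPM in hypoxia and 1.65 to 9.13 CPM in normoxia of the mutants. Krt19 gave 14.0 to 60.9 CPM of these sums in hypoxia and 0.1001 to 8.499 CPM in normoxia, while Epcam, Cdh1, Krt5 and Krt14 stayed under 1 CPM. The sum of 7 adipocyte markers, 2 of them tested, was 18.1 to 29.5 CPM in double-mutant hypoxia against 35.03 to 44.23 CPM in normoxia, 53.5 to 55.2 CPM in GLAD hypoxia against 68.0 to 69.4 CPM in normoxia, and 33.8 to 34.1 CPM in TIN hypoxia against 26.7 to 27.6 CPM in normoxia. The sum of 7 endothelial markers, 3 of them tested and Emcn at 0 throughout, was 8.38 to 8.60 CPM in double-mutant hypoxia against 2.35 to 3.89 CPM in normoxia, 15.7 to 16.7 CPM in GLAD hypoxia against 15.4 to 15.5 CPM in normoxia, and 5.76 to 6.47 CPM in TIN hypoxia against 4.40 to 4.72 CPM in normoxia. The part of these markers in the hypoxia effects was not tested.

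The lists that follow were chosen, like the 6 genes, with earlier results of these data known, so their counts are descriptions, and those between TRF1 forms support nothing about the forms. Of the cytokines that induce these genes, 10 of 16 were tested, and Il1a, Il1b, Tnf, Il17a, Osm and Lta lay below the minimum. In hypoxia 9 rose and 0 fell in TIN, where 26.8% of all tested genes were called up and 27.3% down. The median log2 change was 1.19 there, against 0.01 over all tested genes. In GLAD 7 rose and 2 fell (median 0.95 against -0.04), where 22.0% were called up and 26.0% down. In the double mutant 5 rose and 4 fell (median 0.34 against -0.04), where 26.3% were called up and 29.7% down. Il6, which signals through STAT3, rose by 2.79 ± 0.20 in TIN, 1.97 ± 0.20 in GLAD and 2.11 ± 0.20 in the double mutant (adjusted p = 2.73e-09, 2.50e-07 and 6.01e-08 by limma). Its level in libraries A and B was 7.07 and 8.40 CPM in TIN hypoxia against 0.635 and 0.738 CPM in TIN normoxia. Lif, a cytokine of the interleukin 6 family, rose by 2.65 ± 0.10 in TIN, 1.55 ± 0.10 in GLAD and 0.96 ± 0.10 in the double mutant. Other ligands fell in the double mutant, with log2 changes of -1.34 ± 0.14 for Ctf1, another cytokine of that family, -1.09 ± 0.21 for Il33, an alarmin of the interleukin 1 family, and -1.045 ± 0.19 for Tnfsf11, which activates NF-kB through RANK. Il33 rose by 0.96 ± 0.21 in TIN. One ligand fell in TIN without double-mutant hypoxia library A or B or wild-type library A, and 1 rather than 2 fell in GLAD without GLAD hypoxia library B.

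Receptors and adaptors of these pathways were tested in 22 of 22 cases. In hypoxia 6 rose and 5 fell in TIN (median -0.13, against 0.01 over all tested genes), where 26.8% of all genes were called up and 27.3% down, so that count is near the background. In GLAD 10 rose and 9 fell (median 0.18 against -0.04), where 22.0% were called up and 26.0% down, and in the double mutant 8 rose and 10 fell (median -0.09 against -0.04), where 26.3% were called up and 29.7% down. The TIN count of rising receptors was 3 without TIN normoxia library A or hypoxia library B, and the GLAD count was 6 without GLAD normoxia library A or hypoxia library B. Of 11 subunits and kinases of NF-kB 5 rose and 2 fell in TIN (median 0.21), 3 rose and 1 fell in GLAD (median 0.21) and 7 rose and 3 fell in the double mutant (median 0.35). For these the GLAD count of rising genes was 5 with median-ratio scaling, 7 with only the groups compared and 6 without either or both wild-type libraries. With median-ratio scaling or no filter 0 fell in GLAD. The GLAD count of falling genes was 0 without any 1 of 10 libraries (those of the mutants other than double-mutant hypoxia), and the TIN count of falling genes was 1 without TIN normoxia library B.

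Of 12 tested inhibitors and feedback genes of NF-kB, 10 rose and 0 fell with hypoxia in TIN (median 0.77). Over all tested genes 26.8% were called up and 27.3% down there. In GLAD 5 rose and 2 fell (median 0.10), against 22.0% up and 26.0% down. In the double mutant 6 rose and 1 fell (median 0.24), against 26.3% up and 29.7% down. Nfkbia, the inhibitor that NF-kB itself induces, rose by 1.01 ± 0.08 in TIN, 0.25 ± 0.08 in GLAD and 0.47 ± 0.08 in the double mutant. Nfkbiz, a nuclear cofactor needed for Lcn2 induction in mouse cells, rose by 0.95 ± 0.09 in TIN, 1.53 ± 0.09 in GLAD and 0.44 ± 0.09 in the double mutant. Tnfaip3, which ends NF-kB signalling, rose by 1.85 ± 0.09, 2.05 ± 0.09 and 1.93 ± 0.09 in these mutants in the same order. The GLAD count of rising genes was 3 without GLAD normoxia library A or hypoxia library B, the GLAD count of falling genes was 1 without normoxia library A, the TIN count of falling genes was 1 without TIN hypoxia library B or either wild-type library, and the double-mutant count of falling genes was 2 without either wild-type library.

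Of 14 tested genes of the C/EBP and STAT3 arm, 8 rose and 2 fell with hypoxia in TIN (median 0.45). Among all tested genes 26.8% were called up and 27.3% down in TIN. In GLAD 7 rose and 0 fell (median 0.30), against 22.0% up and 26.0% down. In the double mutant 5 rose and 3 fell (median 0.11), against 26.3% up and 29.7% down. The TIN count of falling genes was 1 without TIN hypoxia library A or any 1 of the 6 mutant normoxia libraries. Socs3, the feedback inhibitor of STAT3, rose by 1.16 ± 0.09 in TIN, 0.41 ± 0.09 in GLAD and 0.24 ± 0.09 in the double mutant. Cebpd, a C/EBP factor of the acute phase, rose by 1.00 ± 0.08 in TIN and 0.74 ± 0.08 in GLAD, and its difference in the double mutant was 0.04 ± 0.08 (adjusted p = 0.693 by limma). Stat3 itself was not called in TIN (-0.10 ± 0.07, adjusted p = 0.236) or GLAD (-0.11 ± 0.07, adjusted p = 0.221) and fell by 0.28 ± 0.07 in the double mutant. In normoxia 9 of the 14 were higher and 2 lower in the double mutant than in GLAD (median 0.50, against 0.01 over all tested genes), where 18.5% of all genes were called up and 17.2% down. Cebpd was 1.28 ± 0.08 and Cebpb 1.16 ± 0.11 higher there. The count of lower genes was 1 without GLAD normoxia library A or either double-mutant normoxia library.

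Of 17 tested chemokine and effector targets of NF-kB, 14 rose and 1 fell with hypoxia in TIN (median 1.03). The shares of all genes there were 26.8% called up and 27.3% down. In GLAD 9 rose and 4 fell (median 0.48), against 22.0% up and 26.0% down. In the double mutant 10 rose and 6 fell (median 0.36), against 26.3% up and 29.7% down. Cxcl10, a chemokine for T cells, rose by 2.85 ± 0.08 in TIN, 1.01 ± 0.08 in GLAD and 1.14 ± 0.08 in the double mutant. In normoxia 15 of 17 were higher and 1 lower in the double mutant than in TIN (median 1.87, against -0.01 over all tested genes), where 24.1% of all genes were called up and 23.4% down. Nos2, the inducible nitric oxide synthase, had 60.1 and 68.8 CPM in double-mutant normoxia against 0.244 and 0.492 CPM in TIN normoxia. In TIN against GLAD normoxia 2 were higher and 15 lower (median -1.12, against 0.02), where 25.8% of all genes were called up and 25.5% down. The count of higher genes there was 1 without GLAD normoxia library A or TIN normoxia library B. Ccl5, another chemokine, was 3.47 ± 0.10 lower in TIN than in GLAD and 5.36 ± 0.10 higher in the double mutant than in TIN (log2, normoxia).

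Other acute-phase genes were listed as well, 38 in all, of which 17 were tested. Those made mainly in liver, such as Crp and the fibrinogen genes Fga, Fgb and Fgg, were below the minimum. In hypoxia 12 rose and 3 fell in TIN (median 0.95), against 26.8% of all genes called up and 27.3% down. In GLAD 8 rose and 4 fell (median 0.14), against 22.0% up and 26.0% down. In the double mutant 9 rose and 5 fell (median 0.66), against 26.3% up and 29.7% down. The counts of falling genes in GLAD and in the double mutant are near those shares. Without GLAD normoxia library A or either GLAD hypoxia library 2 rather than 4 fell in GLAD. Lbp, which binds bacterial lipopolysaccharide, rose by 2.29 ± 0.12 in TIN, against 0.06 ± 0.12 in GLAD (adjusted p = 0.719 by limma) and -0.10 ± 0.12 in the double mutant (adjusted p = 0.527 by limma). Hp, which encodes the haemoglobin scavenger haptoglobin, had 5.27 and 4.90 CPM in TIN hypoxia against 0.489 and 0.246 CPM in TIN normoxia, and 20.6 and 25.7 CPM in double-mutant hypoxia against 40.6 and 36.6 CPM in double-mutant normoxia. Hp rose in TIN (adjusted p = 1.23e-08 by limma) and fell in the double mutant (adjusted p = 0.00706 by limma), the directions that Serpina3n and Steap4 took there.

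Beside C3, 34 complement genes were listed and 19 tested. In hypoxia 9 rose and 4 fell in TIN (median 0.45), against 26.8% of all genes up and 27.3% down. In GLAD 3 rose and 5 fell (median -0.12), against 22.0% up and 26.0% down, and in the double mutant 1 rose and 8 fell (median -0.33), against 26.3% up and 29.7% down. Without double-mutant hypoxia library A 5 fell in the double mutant, and without normoxia library B or hypoxia library B of that mutant 0 rose. C4b, the source of the C4 fragments that build the C3 convertase, had 12.7 and 11.3 CPM in TIN hypoxia against 1.37 and 1.47 CPM in TIN normoxia, and rose by 2.70 ± 0.10 (adjusted p = 1.89e-13 by limma). Its difference was 0.02 ± 0.10 in GLAD (adjusted p = 0.895 by limma). C4b may share reads with a similar copy, C4a, so its level is uncertain. C1s1, a protease that cleaves C4, rose by 1.49 ± 0.07 in TIN. Cfb, which forms the alternative convertase with C3, rose by 0.49 ± 0.12 in TIN and fell by 0.35 ± 0.12 in the double mutant. In normoxia 13 of 19 were higher and 1 lower in the double mutant than in TIN (median 1.33, against -0.01 over all tested genes, of which 24.1% were called up and 23.4% down), and without either wild-type library 2 were lower.

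Serpina3n lies among a cluster of similar serpin copies. Of 5 tested relatives, 3 rose and 0 fell with hypoxia in TIN (median 0.56), against 26.8% of all genes up and 27.3% down. In GLAD 0 rose and 4 fell (median -0.94), against 22.0% up and 26.0% down. In the double mutant 0 rose and 4 fell (median -0.83), against 26.3% up and 29.7% down. Serpina3g had 40.1 and 42.9 CPM in TIN hypoxia against 24.3 and 27.6 CPM in TIN normoxia, and 29.8 and 42.5 CPM in double-mutant hypoxia against 118 and 119.9 CPM in double-mutant normoxia. Reads shared between these copies could enter more than 1 of these values.

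Steap1, Steap2 and Steap3, of the same family as Steap4, fell in hypoxia in all 3 mutants. Steap3, which reduces the iron brought in by transferrin, fell by 1.47 ± 0.08 in TIN, 1.63 ± 0.08 in GLAD and 1.65 ± 0.08 in the double mutant. Slc22a17, a receptor for lipocalin 2, rose by 0.78 ± 0.21 in TIN and 0.56 ± 0.21 in GLAD (adjusted p = 0.0047 and 0.0382 by limma), and its difference in the double mutant was -0.20 ± 0.21 (adjusted p = 0.438 by limma). Of 13 tested genes of lipocalin receptors and iron handling 4 rose and 7 fell in TIN (median -0.30). For all tested genes the TIN shares were 26.8% up and 27.3% down. In GLAD 3 rose and 6 fell (median -0.36), against 22.0% up and 26.0% down. In the double mutant 5 rose and 6 fell (median -0.20), against 26.3% up and 29.7% down. The counts of rising genes in TIN and GLAD are near those shares. The TIN count of rising genes was 2 without TIN hypoxia library A, and the GLAD count was 1 without GLAD normoxia library A or either GLAD hypoxia library.

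Among the adhesion receptors and partners of Icam1, 10 of 14 were tested. Vcam1, the other main cytokine-induced adhesion receptor, fell with hypoxia in all 3 mutants, by 0.58 ± 0.08 in TIN, 1.27 ± 0.08 in GLAD and 1.25 ± 0.08 in the double mutant. Icam1 rose in the double mutant, where Vcam1 had 58.4 and 60.1 CPM in hypoxia against 140.2 and 143 CPM in normoxia. Ezr, which links Icam1 to actin, rose by 0.84 ± 0.09 in TIN, 0.87 ± 0.09 in GLAD and 1.00 ± 0.09 in the double mutant. Over the list 4 rose and 2 fell in TIN (median 0.32), 2 rose and 3 fell in GLAD (median 0.07) and 2 rose and 3 fell in the double mutant (median -0.06). The GLAD and double-mutant counts are near the shares over all genes. Those were 22.0% up and 26.0% down in GLAD and 26.3% up and 29.7% down in the double mutant. In TIN they were 26.8% up and 27.3% down. Without GLAD hypoxia library B 1 rose and 1 fell in GLAD, and without GLAD normoxia library B 1 rose.

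The genes most alike in pattern were sought among 11933 tested genes with a mean of at least 5 CPM, by Pearson r over the 14 libraries. To the mean of the 6 genes, each scaled to mean 0 and SD 1, the nearest were Lbp (r = 0.987), Glrx (0.972), C4b (0.969), Adam8 (0.968), Gm4524 (0.967), Clu (0.962), Cp (0.961), Aif1l (0.959), Susd6 (0.954) and Itih2 (0.950). Lbp averaged 48.0 CPM in double-mutant hypoxia, 51.2 CPM in double-mutant normoxia, 25.7 CPM in GLAD hypoxia, 24.8 CPM in GLAD normoxia, 13.9 CPM in TIN hypoxia, 2.45 CPM in TIN normoxia and 5.52 CPM in wild type. Taken singly, Lcn2 was most like Clu (0.982), Ctsb (0.980) and Aif1l (0.978), and C3 most like C4b (0.993), Lama4 (0.981) and Gm20536 (0.978). Saa3 was most like Rnf157 (0.983), Gm20547 (0.980) and Cfb (0.978), where Gm20547 and Cfb overlap in the annotation and may share reads. Serpina3n was most like Adam8 (0.969), Col18a1 (0.969) and Lbp (0.967), Steap4 most like Igfbp3 (0.984), Mctp1 (0.982) and Spata13 (0.969), and Icam1 most like Abcb9 (0.970), Sash1 (0.952) and Rpia (0.945). No gene stood among the 3 nearest of more than 1 of the 6 genes. The libraries of a group share these values' structure, so the r values describe 7 groups sampled in pairs.

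**Figure D4:**
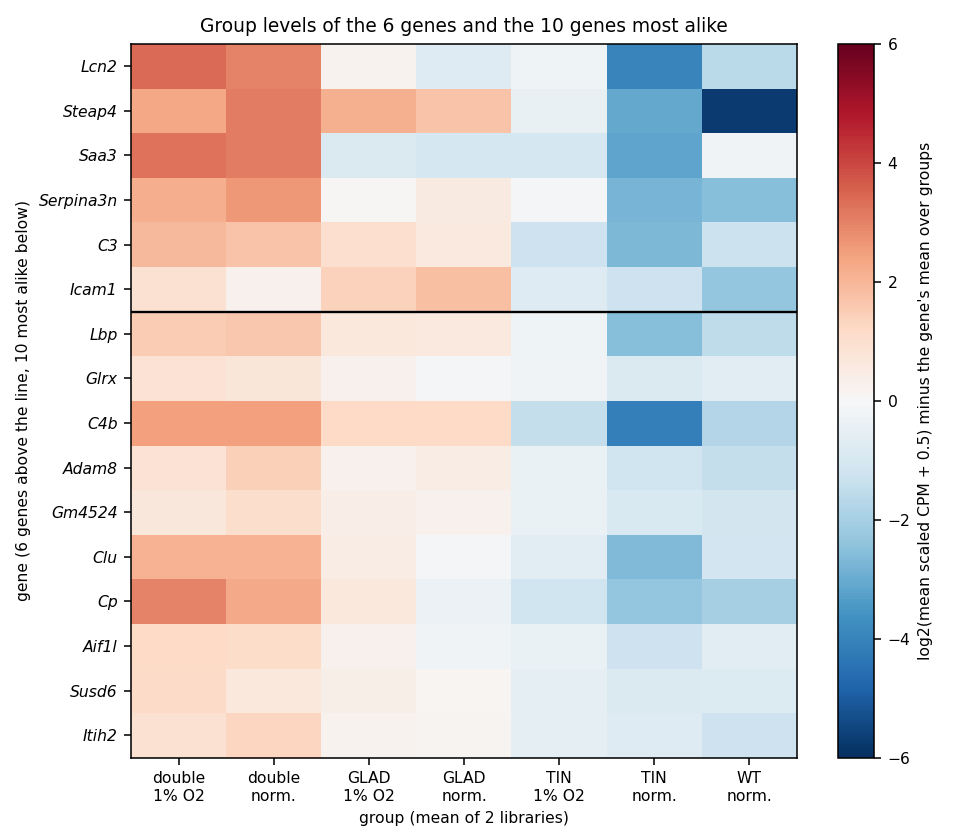
Group levels of the 6 genes (above the line) and of the 10 genes most alike to their mean (below it), as log2(mean TMM-scaled CPM + 0.5) minus the gene's mean over the 7 groups. Red is above and blue below a gene's own mean, and each cell is the mean of 2 libraries. C4b spans from 2.44 in both double-mutant groups to -4.12 in TIN normoxia.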

How the data were processed

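Gene expression was measured by RNA-seq in 14 libraries of transformed mouse embryonic fibroblasts. The authors deposited 1 table of CPM, read counts scaled to library size, for 52636 Ensembl genes. Per the submitters' processing notes, STAR and HTSeq were used with GRCm38.p4 (mm10). Their versions, the strand setting and the treatment of reads that match several genes are not given in the sources used here. Libraries were assigned to groups from the titles in the labels.

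The deposited CPM values were scaled by TMM (trims of 30% and 5%) computed on the CPM. A gene was tested where 2 or more libraries reached 1 CPM (16157 genes), and log2(CPM + 0.5) was fitted with limma 3.58.1 (R 4.3.3) as 7 group means with 7 residual degrees of freedom. Fold changes are on that scale and understate changes of low genes. The Benjamini-Hochberg adjustment ran over all tested genes of a comparison, with a threshold of 0.05. The script was tested on simulated data. Figures and tables were made with Python 3.11.15, pandas 2.3.3 and matplotlib 3.10.9. Depth, 11916992 to 15023545 reads per library, was estimated from the steps between low CPM values, and depth limits and read numbers cover counting error only.

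The 6 genes and the gene lists were chosen with earlier results of these data known, so differences between TRF1 forms were not tested for the 6 genes. Of each other list the text names up to 4 called genes with the largest change and a mean of at least 5 CPM, plus a short list of genes on which the biology of the 6 turns. Neighbours in pattern were ranked by Pearson r over the 14 libraries. Alternatives were pseudocounts of 0.1 and 2 CPM, no filter, no further scaling, median-ratio scaling, only the groups compared, a replicate block, each library left out and, added after the data were seen, no wild-type libraries.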

Additional observations from a re-analysis of the deposited data

Results flagged for a closer look

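The hypoxia effects of 3 genes went in opposite directions in different mutants, with every hypoxia library on the other side of its normoxia libraries. How often this holds over all tested genes was not counted, so it is not read as a trait of these genes. The difference between the effects was not tested for any of them. For Serpina3n the effect in TIN minus that in GLAD was 3.17 on the log2 scale, and the effect in the double mutant minus that in TIN was -3.12. For Steap4 the effect in the double mutant minus that in GLAD was -1.16, and that in the double mutant minus that in TIN was -3.36. For Icam1 the effect in TIN minus that in GLAD was 0.98, and that in the double mutant minus that in GLAD was 1.13. The Icam1 effect in GLAD itself just missed the threshold (adjusted p = 0.0502 by limma), and the Serpina3n effects in GLAD and in the double mutant lost their calls without single libraries.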

How the results depend on the processing

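Of 528 hypoxia tests of the 6 genes under alternatives, 485 kept direction and side of the threshold, 33 lost their call, 10 gained one and 0 changed sign. The number that rose was 5 to 6 in TIN (6 in the reported fit), 2 to 3 in GLAD (3), 2 to 4 in the double mutant (3) and 5 to 6 on average (6). The number of the 6 genes that fell in GLAD, 1 in the reported fit, was 2 with a pseudocount of 2 CPM, with CPM as deposited, with only the groups compared and without the wild-type libraries, 0 with no filter, and 0 to 2 on leaving out each library. The number that fell in the double mutant, 2 in the reported fit, was 1 with a pseudocount of 0.1 CPM, with no filter and with median-ratio scaling, and 1 to 2 on leaving out each library. Of 1133 differences between TRF1 forms under alternatives, 1060 moved by less than the spread between replicates, 72 by more, and 1 changed sign: Serpina3n in TIN minus GLAD hypoxia, -0.14 in the reported fit, ran from -0.32 without TIN hypoxia library A to 0.049 without library B. The cause was not tested. Of 2838 counts over the other lists, 135 moved by over 1.5 times.

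With library letter as a replicate block, 24 of 24 hypoxia calls of the 6 genes were the same, the number that fell stayed 1 in GLAD and 2 in the double mutant, and called genes numbered 7835 in GLAD (7754 without the block), 8828 in TIN (8735) and 9149 in the double mutant (9043). The letters did not meet the bar for pairing: the deviations of libraries with the same letter correlated between -0.0969 and 0.161 over 21 pairs of groups (median 0.0271). Over single genes, library A lay below library B in 7 of 7 groups for Lcn2 and for Saa3. A count test with edgeR on reads recovered from the CPM steps was not run, because the steps were not accepted as whole reads for that use, so depths and read numbers are estimates. Depth limits the lowest groups, where Steap4 and Icam1 in wild type and Serpina3n in TIN normoxia and wild type rest on 3 to 10 reads per library, and their log2 differences move with the pseudocount (Icam1 in GLAD minus wild type from 2.99 to 4.82).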
